A study of Mus with 2 samples.

Results

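The loop of Henle cluster of the mouse kidney was compared between senescent and young C57BL/6 mice, using the means that the authors deposited for the cluster they labelled LOH. Its members are the genes listed for LOH in the deposited comparison with a mean of at least 0.1 in either library, and 1761 genes met this rule, out of 20111 entries of a gene in a cluster and 8191 distinct genes over 7 clusters. Kidneys were dissociated with enzymes, and single cells were captured in droplets. There was 1 library of young mice and 1 library of senescent mice, for which the series states 10895 and 4408 cells. The sources used here do not give the age, sex or number of the mice or the number of LOH cells, and the labels name no treatment or genetic change. The deposited table names its contrast C57-vs-WT-48, a name that no source used here explains, so the direction of every ratio rests on the labels' descriptions of the young and senescent libraries.

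The deposited table lists a gene in LOH only at a p-value over cells below 0.05 and a log2 fold change of 0.36 or more in size. Genes missing from the list may be unchanged, changed too little, or too variable among cells, and all listed genes differ by the way they entered the table. The minimum of 0.1 removed 0 LOH genes, and the member nearest to it was Atp23, with a young mean of 0.106 and a senescent mean of 0.0595. Each value below is the mean scaled expression per cell of LOH in 1 library, without a spread between mice, so differences are given as ratios of senescent to young means and no test between the groups was run. In means over a cluster, fewer cells expressing a gene and less RNA per cell cannot be told apart.

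The loop of Henle carries urine from the proximal tubule down into the medulla and back to the cortex. Its thick ascending limb is impermeable to water and reabsorbs sodium chloride through the cotransporter NKCC2, encoded by Slc12a1, with potassium recycled by the channel ROMK (Kcnj1). The energy comes from the sodium pump and from densely packed mitochondria. The segment also secretes uromodulin, the most abundant protein of normal urine, and the growth factor EGF.

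Of the 5 genes that mark the label, Umod alone was listed in LOH, and Slc12a1, Egf, Ppp1r1a and Kcnj1 were not, so their LOH means are unknown. Umod had a young mean of 47.6 in LOH, against 3.20 in the proximal tubule cluster PT, 1.73 in the macrophage cluster Marco, 0.734 in B and 0.674 in T. Wfdc15b, another thick ascending limb gene, had a young mean of 21.4 in LOH and 1.79 in PT. Both were highest in LOH among the clusters that list them. Slc12a3, which encodes the thiazide-sensitive cotransporter of the next segment, the distal convoluted tubule, was also listed in LOH with a young mean of 9.05, against 0.341 in PT and 0.283 in T. The cluster means thus hold transcripts of the distal convoluted tubule beside those of the thick ascending limb, and the share of each cell type in LOH is not known. None of the marker genes of the macula densa, intercalated cells, podocytes, stromal cells, red cells or T cells was listed in LOH.

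In LOH, 857 genes (48.7% of 1761) differed at least 2-fold between the libraries. Of all genes, 485 (27.5%) had at least 2-fold higher and 372 (21.1%) at least 2-fold lower means in the senescent library. Counted at any size, 841 genes (47.8%) were higher and 920 (52.2%) were lower. These shares are the ones to set beside each count of higher or lower list members below. An adjusted p of at most 0.05 was given to 259 genes (14.7%) by the authors' deposited table, with 83 higher (4.71%) and 176 lower (9.99%). Those p-values measure spread between cells, not between mice. Higher genes made up 56.6% of the genes past 2-fold, and 74.8% after centring the ratios on their median, which was -0.39 on the log2 scale. Listing leaves out log2 fold changes smaller than 0.36 in size, so this median lies at the edge of that gap. It is not a measure of a shift between the libraries, here or in the counts after centring below. When genes whose young mean was higher in PT were left out, they made up 71.3%, at 397 higher and 160 lower.

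**Figure D1:**
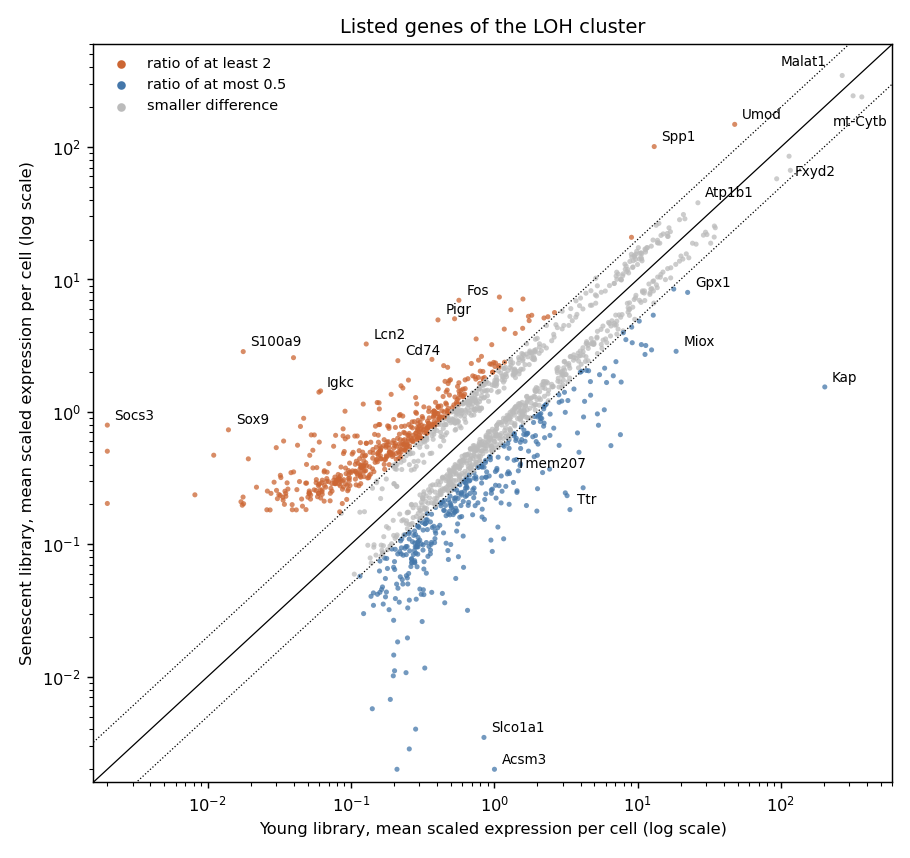
Each point is 1 of the 1761 genes listed in LOH, with the young mean on the x axis and the senescent mean on the y axis, in mean scaled expression per cell on log scales, with genes at 0 drawn at the axis edge. The solid line marks equal means and the dotted lines a 2-fold difference, and Umod and Spp1 lie far above the line at high levels, and Kap lies far below it.

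Many of the genes furthest below the line in LOH were proximal tubule genes. Kap, the androgen-regulated kidney protein and the most abundant of them in the young library, had LOH means of 202 and 1.54, given here and below as young and then senescent, and was thus 131-fold lower. Kap was lower in every other cluster too, immune clusters included. Beside PT, given below, its means were 499 and 1.24 in B, 642 and 2.24 in Marco and 505 and 2.82 in T. They were 294 and 4.31 in the endothelial cluster and 42.7 and 2.67 in Neutro. Miox, which opens the inositol ring, had LOH means of 18.6 and 2.87, and Slc34a1, the phosphate transporter of the proximal brush border, had LOH means of 11.3 and 2.71. Of the 33 genes in the proximal tubule marker list, 29 were listed in LOH, all 29 were lower in the senescent library, and 27 were at least 2-fold lower, against 21.1% of all LOH genes. The authors' deposited table gave 23 of the 29 an adjusted p of at most 0.05, while 9.99% of all LOH genes were lower with such a p. The median log2 ratio of the 29, after adding a pseudocount of 1 as in all list medians below, was -1.26, against -0.11 over all LOH genes.

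For 23 of these genes the table also gives the PT mean, so that the LOH level can be set beside it. In the young library, the LOH mean of these genes was between 23.6% and 121% of the PT mean, with a median of 43.5%. In the senescent library it was between 6.54% and 18.4%, with a median of 14.02%. The PT means themselves differed between the libraries for all 23, with 17 lower and 6 higher in the senescent library. Among the 17, the median LOH level went from 40.3% to 14.02% of PT, and Kap, with PT means of 719 and 21.4, went from 28.1% to 7.20%. Among the 6, where the higher PT mean itself lowers the percentage, Slc5a12, a lactate transporter with PT means of 0.380 and 1.56, went from 121% to 6.54%. Summed over all 610 LOH genes with a greater young mean in PT, such genes held 37.5% of the listed LOH expression of the young library and 28.0% of that of the senescent one. They include 212 of the 372 genes at least 2-fold lower in LOH, and 88 of the 485 at least 2-fold higher. PT lists 245 of the 372 and 348 of the 485. A gene that PT does not list has no PT mean and is not counted as greater there. The part of the 610 genes' transcripts in the other LOH differences was not tested. Genes that differ between male and female mouse kidneys were lower in all 18 listed members, out of 32, against 52.2% of all LOH genes. At least 2-fold lower were 17 of these, Kap among them, against 21.1% of all LOH genes. The list shares Kap, Ugt2b38, Acsm2, Slc7a13, Cyp4b1, Cyp2e1 and Slc22a30 with the proximal tubule list. Of the 18, 15 had a greater young mean in PT, and the sex of the mice is not known. The plot of levels relative to other clusters shows this shift together with that of immune genes, given further below.

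**Figure D2:**
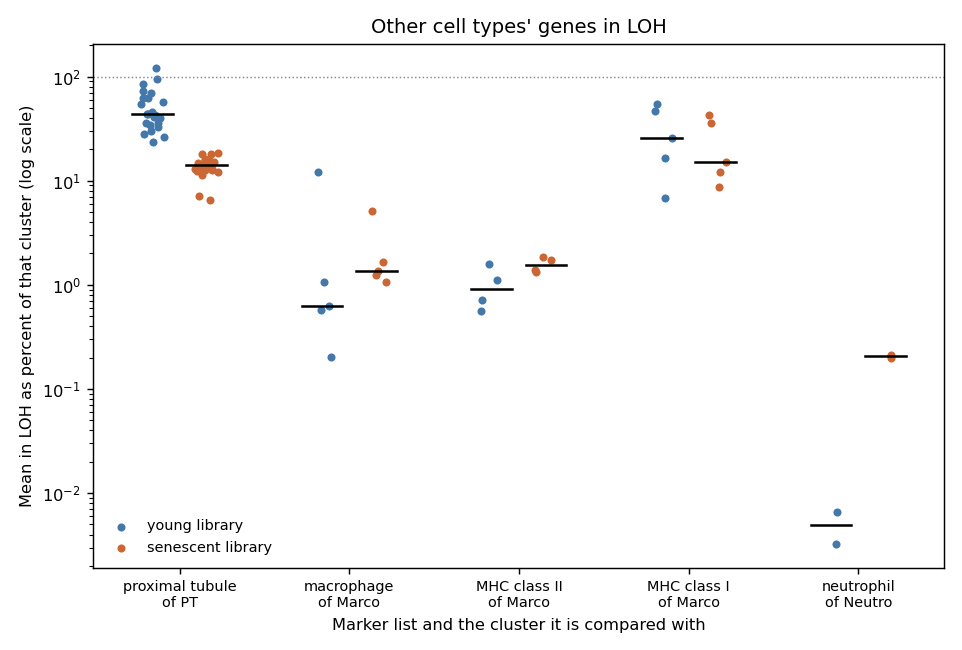
The y axis gives the LOH mean of a gene as a percent of its mean in the cluster named under each list, on a log scale, with 1 point per gene and library and black bars at the medians. Proximal tubule genes lie lower in the senescent library (median 14.02%) than in the young one (43.5%), whereas macrophage, MHC class II and neutrophil genes lie higher.

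Uromodulin was higher in the senescent library, and of the listed thick ascending limb markers it had the largest difference between the means, though not the largest ratio. Its LOH means were 47.6 and 148, a 3.11-fold difference. The same gene was lower in the senescent library in every other cluster that lists it, at 3.20 and 0.535 in PT, 1.73 and 0.862 in Marco, 0.674 and 0.448 in T, and 0.734 and 0.336 in B. Umod lies on chromosome 7 from 119462708 to 119479262 in the RefSeq annotation of GRCm38.p6, the assembly known as mm10, and is protein coding.

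Most other listed thick ascending limb markers were higher too. Kng2, a kininogen, had LOH means of 7.94 and 11.03, and Wfdc15b had means of 21.4 and 28.7, a 1.34-fold difference. The calcium-sensing receptor gene Casr, which restrains salt and calcium transport in this limb, was low in both libraries, at 0.0840 and 0.310, and had the largest ratio of this list, at 3.69. Tfcp2l1, a transcription factor of the distal nephron, had means of 1.30 and 2.38, and the nuclear receptor gene Esrrb had means of 0.172 and 0.369. Tmem207 went the other way, from 1.28 to 0.342. In all, 8 of 26 list members were listed in LOH, 7 higher and 1 lower, with a median log2 ratio of 0.42. At least 2-fold higher were 3 of the 8, against 27.5% of all LOH genes, so the share is near that of all genes. Among the 8, the authors' deposited table gave Umod alone an adjusted p of at most 0.05.

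Secreted and membrane glycoproteins of the segment were higher in the senescent library in all 6 members listed in LOH, out of 20. Over all LOH genes, 47.8% were higher. The median log2 ratio of these 6 was 1.07. Beside Umod, Kng2 and Wfdc15b they were Spp1, Wfdc2 and Cd24a. Wfdc2, a secreted protease inhibitor of epithelia, had LOH means of 9.07 and 20.8, and in PT its means were 0.889 and 3.95. Cd24a, a surface glycoprotein of progenitor and injured tubule cells, had LOH means of 1.58 and 4.28. Wfdc2, Cd24a, Umod and Spp1 had an adjusted p of at most 0.05 by the authors' deposited table.

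Salt transport genes did not move one way. Atp1b1, the beta subunit of the sodium pump, had LOH means of 26.4 and 37.9, whereas Fxyd2, the gamma subunit that tunes the pump, had means of 114 and 85.2. Fxyd2 was also lower in PT (142 and 56.2), Marco (72.3 and 6.43), B (76.0 and 7.12) and T (70.2 and 5.23). In PT, Atp1b1 was higher (4.55 and 9.45). In Marco (7.21 and 1.10), B (4.19 and 1.51) and T (6.41 and 0.787) it was lower. The carbonic anhydrase genes Car2 and Car4 were lower in LOH, at 4.56 and 2.04 for Car2 and at 2.11 and 0.895 for Car4. The bicarbonate cotransporter gene Slc4a7 (0.0220 and 0.270) and the potassium channel gene Kcnt1 (0.0314 and 0.238) were higher but low in both libraries. Of 26 genes in the list, 7 were listed in LOH, 4 higher and 3 lower, with a median log2 ratio of 0.26. That median became -0.42 when only genes with a mean of at least 0.5 were kept, and Atp1b1 alone reached an adjusted p of 0.05 by the authors' deposited table.

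Genes of calcium and magnesium handling were higher in the 4 of 28 list members that LOH lists. S100g, the vitamin D dependent calcium-binding protein calbindin D9k, was the most abundant, with LOH means of 20.9 and 30.9. Trpm7, a magnesium-permeable channel, had means of 1.01 and 2.20, and Atp2b1, a plasma membrane calcium pump, had means of 0.557 and 1.13. The claudin genes Cldn10, Cldn16 and Cldn19, which form the cation pores of this limb, were not listed in LOH. Among regulators of salt transport, 4 of 30 list members were listed, all higher. Wnk1 (7.09 and 10.6) and Stk39 (0.547 and 1.00) encode kinases of the cascade that activates NKCC2 and the thiazide-sensitive cotransporter. Fkbp5, a glucocorticoid-induced co-chaperone, had means of 0.0758 and 0.550. By the authors' deposited table, none of these 8 genes had an adjusted p within 0.05.

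Distal convoluted tubule genes were listed in LOH for 6 of 12 list members, with 5 higher and 1 lower and a median log2 ratio of 0.55. Slc12a3 had LOH means of 9.05 and 15.5, a 1.71-fold difference, while in PT it had means of 0.341 and 0.108. The monocarboxylate transporter gene Slc16a7 had LOH means of 3.37 and 5.26, and Tmem72 had means of 1.61 and 2.67. Pvalb, the calcium buffer parvalbumin of the early distal convoluted tubule, was lower in the senescent library, at 2.11 and 0.971. By the authors' deposited table, no gene of this list had an adjusted p within 0.05.

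**Figure D3:**
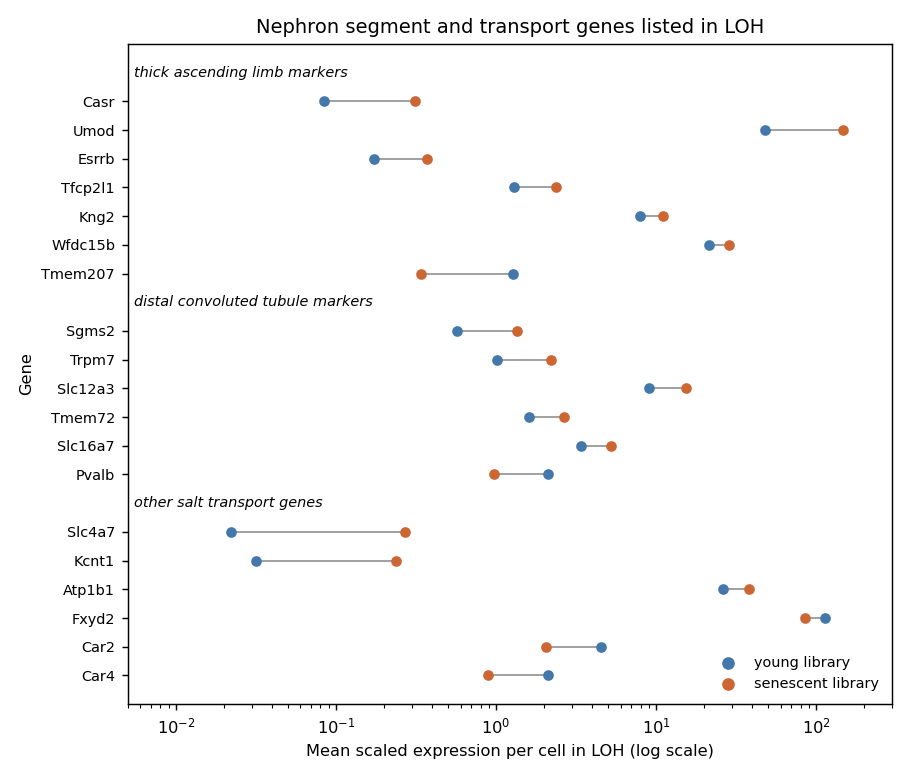
LOH means of listed thick ascending limb markers, distal convoluted tubule markers and other salt transport genes, with a blue point for the young and an orange point for the senescent library, in mean scaled expression per cell on a log scale. Umod moves from 47.6 to 148, and Tmem207, Pvalb, Fxyd2, Car2 and Car4 are the members with lower senescent means.

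Kidney epithelial transcription factors were higher in 11 of the 12 listed members, out of 38 in the list, against 47.8% of all LOH genes. Their median log2 ratio was 0.45. Pou3f3, which takes part in forming the loop of Henle, had LOH means of 0.774 and 1.82, and Foxq1 had means of 0.218 and 0.678. Ppargc1a, a coactivator of mitochondrial genes, had means of 1.49 and 2.48. Cebpb (0.148 and 0.780) and Cebpd (0.0888 and 0.485), factors of the acute-phase response, had the largest ratios beside Hoxb7 (0.221 and 0.955). Hnf4a, a factor of the proximal tubule, was the 1 lower gene, at 0.729 and 0.243. The authors' deposited table gave none of the 12 an adjusted p within 0.05.

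Markers of tubular injury were higher in the senescent library in all 10 members listed in LOH, out of 34 in the list. Spp1, which encodes osteopontin, a secreted matrix protein, had LOH means of 13.1 and 101, a 7.71-fold difference, and was the most abundant of these genes in both libraries. In PT, Spp1 had means of 2.62 and 62.4. It was higher in the senescent library in Marco (0.909 and 6.47), B (1.00 and 6.52) and T (1.29 and 6.82) too. Lcn2, the iron-binding injury marker also called NGAL, had LOH means of 0.128 and 3.26, a 25.4-fold difference, and outside LOH it was listed only in Marco, at 0 and 0.563. Lcn2 is also made by neutrophils, and lies on chromosome 2 from 32384637 to 32387739 in GRCm38.p6.

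Sox9, a transcription factor of regenerating tubule cells, had LOH means of 0.0140 and 0.732, and Sox4 had means of 0.485 and 1.71. Neither Sox9 nor Sox4 was listed in another cluster. The stress cytokine gene Gdf15 had means of 0.158 and 1.05. Tmsb10, an actin-binding peptide, had means of 0.473 and 2.17, and S100a6 had means of 0.0340 and 0.602. In Marco (4.22 and 25.2), B (6.77 and 26.2) and T (20.1 and 54.6), Tmsb10 was higher in the senescent library too, at greater means than in LOH. In PT it was lower, at 1.08 and 0.407. Whether the Tmsb10 transcripts came from LOH cells was not tested. Of the 10 listed injury genes, 8 were at least 2-fold higher, against 27.5% of all LOH genes, and their median log2 ratio was 0.85. Spp1, Lcn2, Tmsb10, Sox4 and Cd24a had an adjusted p of at most 0.05 by the authors' deposited table, while Sox9 had one of 0.35. The injury markers Havcr1, Krt20, Vcam1 and Krt8 were not listed in LOH. Prom1, a surface marker of tubule progenitor-like cells, had LOH means of 0.268 and 0.840.

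Immediate early genes were higher throughout. These genes respond within minutes to growth factors, stress and tissue dissociation. Fos, a subunit of the AP-1 transcription factor, had LOH means of 0.567 and 6.96, a 12.3-fold difference. Its partner genes Jun and Junb had means of 1.31 and 5.91 for Jun and of 0.748 and 3.55 for Junb. Among the AP-1 genes listed in LOH, Jund was the most abundant in the young library and was 2.21-fold higher, at 2.37 and 5.23. Fosb was listed at 0.0469 and 0.894, and Egr1 at 0.252 and 1.74.

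The RNA-binding proteins that shorten the life of cytokine transcripts moved with them, with Zfp36 at 0.224 and 1.57 and Zfp36l1 at 1.59 and 7.11. Among antiproliferative genes of this group, Btg2 had LOH means of 0.368 and 2.49 and Btg1 had means of 0.778 and 2.46. Klf6 had means of 0.157 and 1.17, and Ccn1, a secreted matrix protein, had means of 0.0445 and 0.776. Of 66 list members, 28 were listed in LOH and all 28 were higher, 27 of them at least 2-fold, against 27.5% of all LOH genes. Their median log2 ratio was 0.85, and 11 had an adjusted p within 0.05 by the authors' deposited table. Over all LOH genes, 4.71% were higher with such a p. Of the 28, 5 had a greater young mean in PT. In other clusters Fos was higher as well, at 0.0598 and 3.35 in PT, 0.941 and 31.8 in Marco, 0 and 5.64 in the endothelial cluster, 0.431 and 3.76 in T, and 0.716 and 7.49 in B. The labels give 1 digestion protocol for both libraries, and the part of dissociation in these values was not tested.

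**Figure D4:**
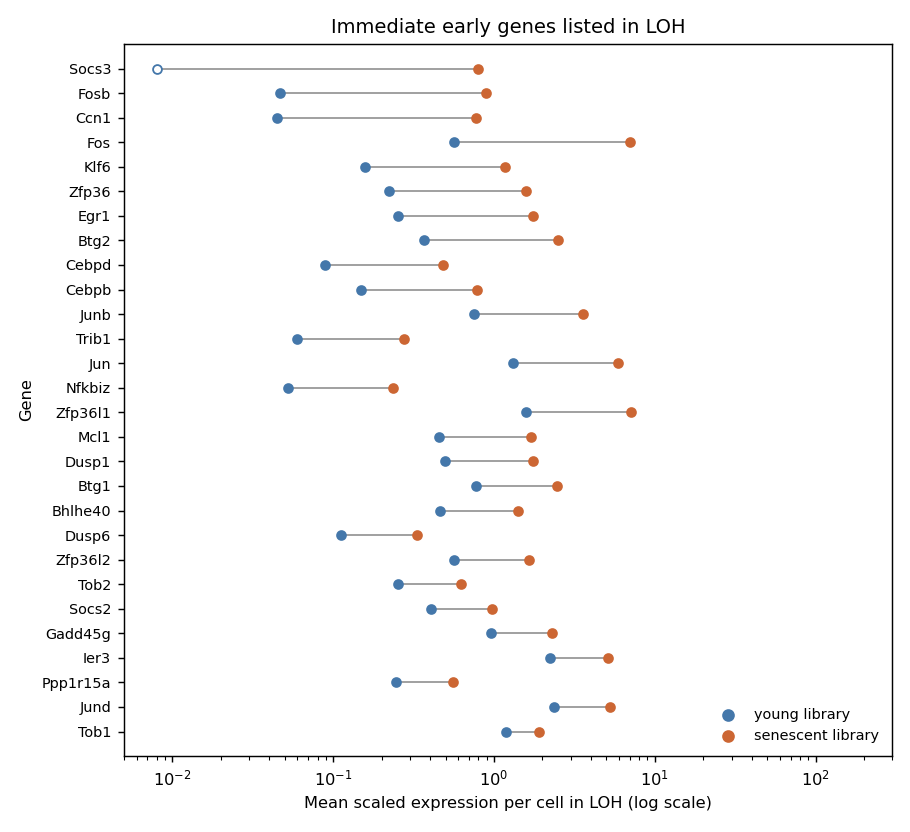
LOH means of the 28 listed immediate early genes in the young (blue) and senescent (orange) library, in mean scaled expression per cell on a log scale and sorted by ratio. Every gene lies higher in the senescent library, and the open point marks Socs3, listed at 0 in the young library.

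Genes of cytokine signalling through STAT3 were listed in LOH for 5 of 57 list members, and all 5 were at least 2-fold higher, against 27.5% of all LOH genes. Socs3, the feedback inhibitor that STAT3 induces, had a mean of 0 in the young library and of 0.794 in the senescent one. Stat3 itself had LOH means of 0.283 and 1.28. Pigr, the receptor that carries polymeric immunoglobulins across epithelia, had means of 0.405 and 4.95, a 12.2-fold difference. It was higher in PT too, at 0.223 and 2.02, and lower in Marco, at 0.343 and 0.229, and in T, at 0.336 and 0.163. Il34, a macrophage growth factor made by tubule cells, had means of 0.0653 and 0.279. The fifth gene was Lcn2, given above. By the authors' deposited table, Il34 alone of the 5 had an adjusted p above 0.05.

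Cell-cycle arrest and p53 target genes were higher in all 10 listed members, out of 34, against 47.8% of all LOH genes. Their median log2 ratio was 0.57. Ccnd1, which encodes cyclin D1 and promotes entry into the cell cycle, had LOH means of 1.75 and 4.89. Gadd45a (0.374 and 0.803), Gadd45g (0.957 and 2.29) and the p27 gene Cdkn1b (0.257 and 0.552) were also higher. The senescence genes Cdkn1a and Cdkn2a were not listed in LOH. By the authors' deposited table Btg1, Btg2 and Ccnd1 had an adjusted p within 0.05, and Btg1 and Btg2 are immediate early genes as well. Of the 50 secretory genes associated with senescence, LOH lists 7, 4 higher and 3 lower (5 higher after centring on the median), with a median log2 ratio of 0.21. The lower members were Igfbp5 (0.874 and 0.241), Igfbp7 (12.2 and 7.93) and Timp3 (5.25 and 4.06).

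Receptors and feedback genes of the ErbB family, through which EGF acts, were higher in all 5 listed members out of 23. Over all LOH genes, 47.8% were higher. Erbb4 had LOH means of 0.323 and 1.09, Erbb3 of 0.0544 and 0.377, and Erbb2 of 0.127 and 0.360. The feedback inhibitor genes Spred2 and Dusp6 had means of 0.0543 and 0.513 for Spred2 and of 0.112 and 0.332 for Dusp6. The authors' deposited table gave none of the 5 an adjusted p within 0.05. Among genes of extracellular matrix and TGF-beta signalling, 6 of 7 listed members were higher, and all 7 after centring on the median, among them Pdgfa (0.0399 and 0.352) and Smad7 (0.409 and 1.10).

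Transcripts typical of immune cells were low but higher in the senescent library. Cd74, the invariant chain of MHC class II, had LOH means of 0.213 and 2.44, and H2-Ab1 had means of 0.231 and 1.51. The complement gene C1qa, a macrophage marker, had means of 0.0110 and 0.471. The 6 listed macrophage markers out of 20 and the 4 listed MHC class II genes out of 14 share Cd74. All were at least 6.56-fold higher, whereas 27.5% of all LOH genes were at least 2-fold higher. Cd74 and Apoe had an adjusted p within 0.05 by the authors' deposited table, and the other 7 genes did not.

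Set beside Marco, 8 of these 9 genes stood at a similar low level in LOH. Without Apoe, their LOH means were between 1.06% and 1.87% of the Marco means in the senescent library and between 0.201% and 1.57% in the young one. Apoe differed, at 12.05% of the young and 5.13% of the senescent Marco level, with LOH means of 1.09 and 7.36. The neutrophil genes S100a8 and S100a9 had LOH means of 0.0398 and 2.57 for S100a8 and of 0.0177 and 2.85 for S100a9, and the S100a8 mean was 0.00658% of the young and 0.213% of the senescent Neutro mean. Both genes stayed above an adjusted p of 0.05 by the authors' deposited table. Igkc, an immunoglobulin light chain gene of B and plasma cells, had LOH means of 0.0599 and 1.41, or 1.17% of the B mean in the senescent library. Whether these transcripts came from LOH cells was not tested.

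MHC class I genes stood at higher levels relative to Marco. H2-K1 had LOH means of 1.18 and 4.22, or 46.4% and 43.0% of the Marco means, and B2m, the light chain of class I molecules, had means of 0.815 and 2.62, or 16.6% and 12.1%. All 5 listed class I genes out of 24 were at least 2-fold higher, against 27.5% of all LOH genes, and their median log2 ratio was 0.77. The authors' deposited table gave H2-K1 and B2m an adjusted p within 0.05. Interferon response genes were higher in all 5 listed members out of 54, against 47.8% of all LOH genes. Ly6e had LOH means of 0.444 and 2.23, and Bst2, which tethers viruses to the cell surface, had means of 0.0193 and 0.442.

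Cytosolic ribosomal protein genes were higher by a small and even amount. All 61 listed members, out of 83, were higher in the senescent library, with ratios between 1.29 and 1.88 and a median of 1.44. Rpl23a, a protein of the large subunit, had LOH means of 3.72 and 6.90. None reached 2-fold, and 36 of the 61 had an adjusted p within 0.05 by the authors' deposited table. Over all LOH genes, 4.71% were higher with such a p. Of the 61, 27 had a greater young mean in PT. All 61 stayed higher after centring on the median of all ratios and after rescaling to the genes not listed with a higher young mean in PT. Neither scaling could have changed this. Centring on a negative median raises every ratio, and the rescaling moved log2 ratios by -0.11, less than the 0.36 needed for listing.

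Genes of the respiratory chain and ATP synthase were lower, most of them by less than 2-fold. Over complexes I to IV and the ATP synthase, 52 of 105 list members were listed in LOH. All 52 were lower, against 52.2% of all LOH genes. Their ratios were between 0.473 and 0.779, with a median of 0.707, near the median of 0.765 over all LOH genes. After centring on the median of all ratios, 3 of the 52 became higher. Of the 52, 20 had an adjusted p within 0.05 by the authors' deposited table, while 9.99% of all LOH genes were lower with such a p. Complex I, which takes electrons from NADH, had 29 of 38 members listed, with ratios between 0.578 and 0.779. Ndufa4 was the most abundant of the 29, with LOH means of 34.8 and 24.6, and Ndufv2 had the lowest ratio, at 6.47 and 3.74. Cycs, which encodes cytochrome c, had means of 17.9 and 8.46, and Uqcrfs1, the iron-sulfur protein of complex III, had means of 9.10 and 4.37. These were the 2 genes past 2-fold. For the ATP synthase, Atp5pb had means of 12.2 and 7.71.

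Of the 52 genes, 21 had a greater young mean in PT, and the part of proximal tubule transcripts in their values was not tested. Of 6 listed transcripts from the mitochondrial genome, 5 were lower and 1 was higher. The lower ones included mt-Cytb (367 and 239), mt-Co2 (319 and 244) and mt-Nd1 (116 and 66.7). The exception was mt-Nd6, at 0.692 and 2.32, which is encoded on the opposite strand to the others. It was higher in the senescent library in PT too, at 0.350 and 1.43, and lower in Marco, at 1.93 and 0.578, and in T, at 1.41 and 0.564.

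Other metabolic groups were lower as well. All 11 listed genes of glycolysis and gluconeogenesis, out of 30, were lower, with a median log2 ratio of -0.56. They included the proximal tubule enzyme Fbp1 (4.20 and 0.915) and the widely expressed Gapdh (17.0 and 10.3) and Ldhb (22.8 and 14.6). Of 40 genes of fatty acid oxidation and peroxisomes, LOH lists 20, and 17 of these were lower and 3 higher. Acaa1b had LOH means of 1.86 and 0.649, while Cpt1a, which admits long-chain fatty acids to the mitochondrion, had means of 1.07 and 2.04. A greater young mean in PT was found for 12 of these 20 genes and for 6 of the 11 glycolysis genes. The glycolysis list shares members with the proximal tubule list, among them Fbp1 and Pck1.

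Chaperone genes were lower in 10 of 11 listed members, out of 37, with a median log2 ratio of -0.29, and 4 of the 11 had a greater young mean in PT. Dnaja1, a partner of HSP70, had LOH means of 3.60 and 1.49, and Hspe1 and Hspd1, the chaperonins of the mitochondrial matrix, had means of 9.56 and 5.00 for Hspe1 and of 3.99 and 1.99 for Hspd1. Hspa5, the main chaperone of the endoplasmic reticulum, had means of 3.26 and 1.69. The authors' deposited table gave 5 of the 11 an adjusted p within 0.05, all lower, while 9.99% of all LOH genes were lower with such a p. All 10 listed proteasome genes, out of 33, were lower, with Psmb6 at 2.83 and 1.54, and 8 had a greater young mean in PT, though 1 of the 10 became higher after centring on the median.

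Antioxidant and metal-binding genes were divided. Mt1 and Mt2, the metallothioneins that bind zinc and copper, were higher, at 13.5 and 25.7 for Mt1 and 0.961 and 3.22 for Mt2. Txnip, which binds thioredoxin, had LOH means of 1.73 and 5.27, and Nfe2l2, which encodes the antioxidant transcription factor NRF2, had means of 0.733 and 1.85. Gpx1, a glutathione peroxidase, was lower at 22.4 and 7.98, as were Sod2 (7.17 and 3.86) and Prdx5 (32.4 and 18.8). In all, of 24 listed members out of 44, 8 were higher and 16 lower, with a median log2 ratio of -0.34. That median was 0.40 without the 12 genes that had a greater young mean in PT.

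Genes of the actin cytoskeleton were higher in 11 of 15 listed members, out of 43, and in 12 after centring on the median. Tmsb4x, an actin-sequestering peptide abundant in blood cells, had LOH means of 0.529 and 5.05, and its Marco means were 30.1 and 199. Actb, which encodes beta-actin, had LOH means of 11.7 and 17.3, and Ezr, which links actin to the apical membrane, had means of 1.83 and 2.74. Among the genes listed in LOH, the most abundant of the senescent library was the nuclear noncoding RNA Malat1, with means of 268 and 347.

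**Figure D5:**
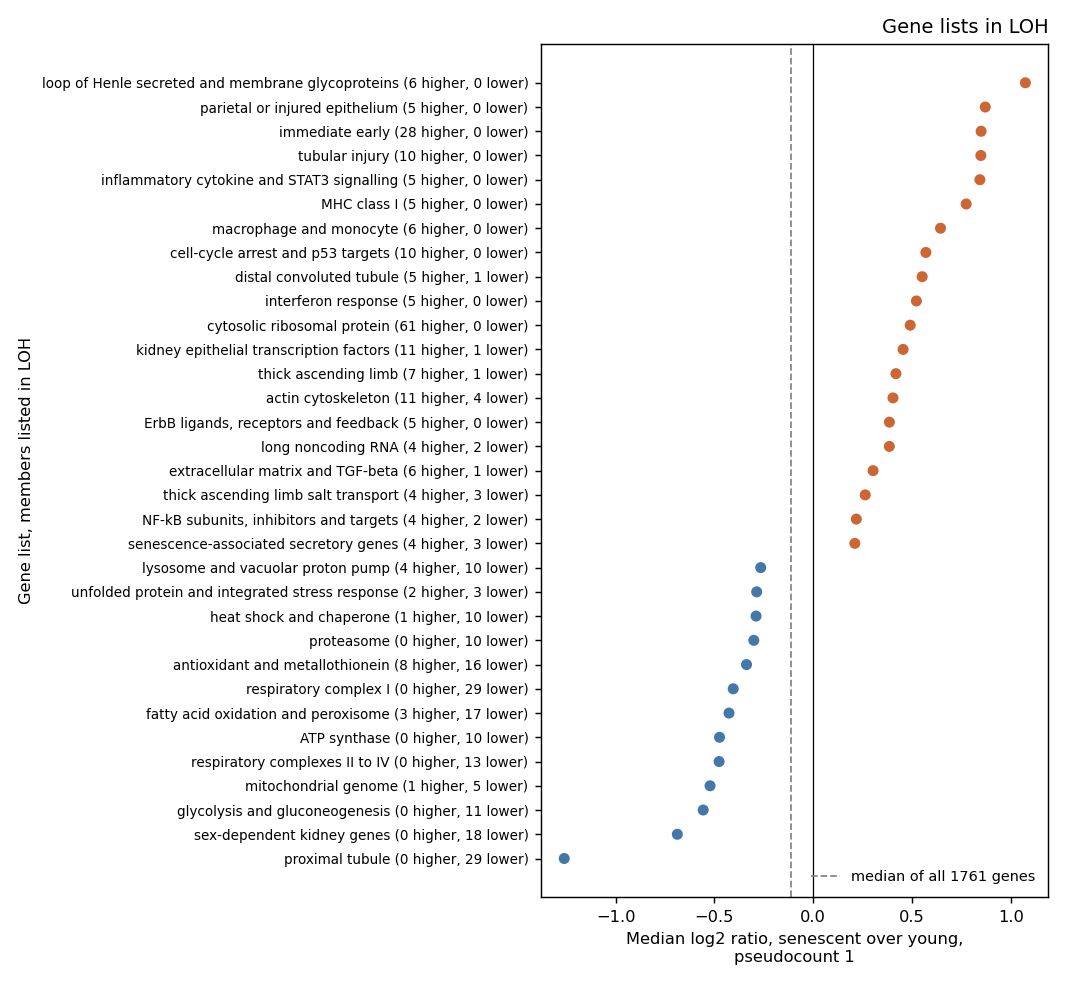
Each point is the median log2 ratio of senescent to young means, after adding a pseudocount of 1, over the members of a gene list that are listed in LOH, for lists with at least 5 such members, with the counts of higher and lower members, before centring, beside each list name. The dashed line marks the median of all 1761 genes, and the loop of Henle glycoprotein list lies furthest right at 1.07 and the proximal tubule list furthest left at -1.26.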

How the data were processed

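The deposited table holds a signal per gene, cluster and library, which the authors computed as a mean over cells, on a scale not stated. It also gives the authors' log2 fold change and the authors' p-value and adjusted p-value per gene, over cells. The submitters' processing notes name Cell Ranger 2.1.1 and mm10. How cells, doublets and clusters were handled, and which test was run, is not given in the sources used here. Depth is unknown. Columns were assigned to libraries by the labels' descriptions alone, since the contrast name is not explained.

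Ratios of means, counts past 2-fold and list medians (pseudocount of 1, lists with 5 or more listed members) were computed, and the code was tested on simulated data. No test was run, with 1 library per group. Members and lists were chosen with earlier results of these data known. Named genes were the 12 with the largest change each way after adding 0.1, the 12 most abundant per library, up to 6 per list with the largest change, and all listed limb and transport genes. Others, such as Jun, Junb, Jund, Btg1, Zfp36, Zfp36l1, Klf6, Gapdh, Ldhb, Slc34a1, Lrp2, Slc5a12, Pck1, Actb, Ezr, Cpt1a, Cdkn1b and Ppargc1a, were chosen after their values were seen. Some genes that the rule names are not reported here, though list counts include them. Gene symbols or identifiers matched RefSeq for 1748 genes (99.3%). Alternatives were other thresholds, pseudocounts and scalings and, chosen after seeing the data, a count without genes higher in PT. Python 3.11.15, numpy 2.4.6, pandas 2.3.3 and matplotlib 3.10.9 were used.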

Additional observations from a re-analysis of the deposited data

Results flagged for a closer look

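Genes past 2-fold in opposite directions in LOH and PT were singled out among the genes named by rule, and the difference between the clusters was not tested, since each library gives 1 mean per cluster. Umod was 3.11-fold higher in LOH and had a ratio of 0.167 in PT. S100a6 had a ratio of 17.7 in LOH and 0.182 in PT, and Tmsb10 had a ratio of 4.58 in LOH and 0.377 in PT. Tmsb10 was also higher in the senescent library in Marco, B and T. In the other direction, the glucose transporter gene Slc2a2 had a ratio of 0.331 in LOH and 2.72 in PT, and the noncoding RNA Snhg11 had a ratio of 0.237 in LOH and 3.53 in PT. Over all 1256 genes listed in both clusters, 26 met the same condition, 3 of them higher in LOH and 23 lower. The 23 include proximal tubule genes such as Lrp2, with means of 4.39 and 2.06 in LOH and of 6.08 and 13.9 in PT.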

How the results depend on the processing

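With 1 library per group no replicate could be left out, and depth is unknown. No paired analysis was possible because each group had 1 library and the result comes from no test. Without a filter on low means, counts were the same. Higher genes past 2-fold numbered 279 with a mean of at least 0.5 and 147 at 4-fold, and lower genes 211 and 100. Higher and lower genes numbered 704 and 660 at 1.5-fold, 685 and 231 after centring on the median, 372 and 244 with a pseudocount of 0.1, and 397 and 160 without genes higher in PT. Rescaling gave 443 higher and 433 lower, so the balance of higher and lower genes depends on the scaling. Medians were further from 0 with a pseudocount of 0.1 and with the authors' deposited log2 fold changes, at 0.67 and 0.72 for the thick ascending limb, -2.01 and -2.18 for the proximal tubule, 2.07 and 2.47 for tubular injury, and 1.63 and 2.17 for immediate early genes. Of 33 list medians, 3 changed sign. They were salt transport (-0.42 with a mean of at least 0.5), and, without genes higher in PT, secretory genes (-0.047) and antioxidant genes (0.40). The median levels of proximal tubule genes relative to PT moved by less than 1.5 times under both alternatives. Ratios with a mean near the smallest above 0 (0.00816 young, 0.00285 senescent), such as that of S100a9, are imprecise.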

Other observations

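The groups in this part were chosen after their values were seen, and they are described only. Circadian clock genes were higher in the senescent library in all 5 members listed in LOH, out of 19, against 47.8% of all LOH genes. Nr1d1 and Nr1d2, which encode the REV-ERB repressors, had LOH means of 0.203 and 0.555 for Nr1d1 and of 0.114 and 0.509 for Nr1d2, Dbp had means of 0.0572 and 0.255, and Per3 had means of 0.0420 and 0.259. The labels give no time of day of collection. Hox genes, which pattern the body axis and keep regional expression in the adult kidney, were higher in 6 of 8 listed members, with Hoxb3 at 0.0517 and 0.470 and Hoxb8 at 0.380 and 1.02, while Hoxa9 (0.387 and 0.126) and Hoxc6 (0.337 and 0.145) were lower.

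Receptors and mediators of BMP and TGF-beta signalling were higher in all 8 listed members, out of 24, with Tgfbr1 at 0.148 and 0.416, Bmpr2 at 0.240 and 0.512 and Smad4 at 0.337 and 0.636. Chromatin regulators were higher in all 10 listed members, out of 32, among them the remodelling subunit genes Arid1a (0.306 and 0.742) and Smarca5 (0.478 and 1.06). Over all LOH genes, 47.8% were higher. None of these 18 genes was listed in PT with a greater young mean, though a gene that PT does not list, such as Acvr2a, has no PT mean. The authors' deposited table gave none of the 18 an adjusted p within 0.05. Of 62 listed solute carriers, 48 were lower, against 52.2% of all LOH genes, and 14 were higher. None of the 14 was listed in PT with a greater young mean, whereas 27 of the 48 were. The inositol cotransporter gene Slc5a3, which responds to the salt of the medulla, was among the 14, at 3.94 and 6.34. Of 22 listed mitochondrial ribosomal protein genes, 19 were lower and 3 higher, though 5 were higher after centring on the median, and 18 of the 22 had a greater young mean in PT.

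Among 113 KEGG pathways annotated in the deposited table with at least 15 LOH genes, the share of higher genes ran from 0 of 26 in degradation of valine, leucine and isoleucine to 20 of 20 in Hippo signalling and 17 of 17 in the cell cycle, against 47.8% of all LOH genes. Focal adhesion had 26 higher of 27, among them the integrin genes Itga6 (0.440 and 1.31) and Itga1 (0.405 and 1.10), and MAPK signalling had 32 higher of 35. These pathways share members. Of all LOH genes, 150 were listed in no other cluster, 92 higher and 58 lower. They include Epcam, an epithelial adhesion molecule (2.98 and 5.75), Fgf9 (0.342 and 0.852) and Gm9732 (0.0615 and 1.44). Listing depends on the number of cells in each cluster, so these genes are not shown to differ only in LOH.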
